A study of Mus musculus with 40 samples.

Results

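H3K4me1, monomethylation of lysine 4 of histone H3, marks enhancers and the flanks of promoters, and it stands at enhancers that are active as well as at those that are only primed. It was mapped here by ChIPmentation, chromatin immunoprecipitation in which the Tn5 transposase adds sequencing adapters on the antibody beads, in haematopoietic stem and progenitor cells of mice that were 21 days old. The comparison described is between Runx1-het and wild type on the autosomes, chromosomes 1 to 19. The authors' pooled H3K4me1 peak list of each genotype was taken, peaks of the 2 lists that overlapped by 1 bp were merged, and each merged region was classed as held by both lists, by the Runx1-het list only or by the wild-type list only. This gave 103024 regions, beside 181776 for all 6 H3K4me1 lists of the study on all chromosomes.

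Each of the 2 genotypes compared had 3 H3K4me1 samples. The wild-type group is labelled wildtype with no allele or agent named. The Runx1-het group carries that genotype label and a source name that joins Runxf and Vav, taken here to mean a floxed allele of Runx1 together with a Vav transgene. Vav1 regulatory sequence is commonly used to drive a recombinase in all blood cells, so that a floxed allele is recombined throughout the blood system and not in adult stem cells alone. The sources used here do not give the exact alleles, the number of animals behind a sample or the strain. The other genotypes of the study, used below only as further readouts, were Flt3-ITD (an internal tandem duplication in the receptor kinase gene Flt3), NUP98-HOXD13 (a nucleoporin and homeodomain fusion), Flt3-ITD/NUP98-HOXD13 with both of these, and as a second double mutant Flt3-ITD/Runx1-het, all at 21 days.

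RUNX1 is the DNA-binding subunit of core-binding factor, which it forms with CBFB. It is needed for the first stem cells of the embryo to arise from endothelium, and in the adult it shapes the megakaryocyte, lymphoid and granulocyte-monocyte lineages. Loss of one copy in people causes a familial platelet disorder with a tendency to myeloid leukaemia. In stem and progenitor cells RUNX1 is known to bind enhancers together with FLI1, ERG, GATA2, TAL1, LYL1 and LMO2, a group called the stem cell heptad.

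The authors deposited 1 list per genotype, pooled over the samples, so there is no value per sample, no spread between samples and no test between genotypes. The 95% Wilson intervals beside shares take in counting error alone. Absence from a list means that no peak reached the authors' threshold there, not that the mark was absent, and the lists do not give the read depth. In pooled cells, fewer cells carrying a mark and less of the mark per cell cannot be told apart.

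Both lists were of nearly equal length on the autosomes, 72235 peaks in Runx1-het and 73007 in wild type, but the Runx1-het peaks were wider, with a median of 430 bp against 393 bp, and covered 38.5 Mb against 35.0 Mb. The other 4 H3K4me1 lists held 93790 to 116497 autosomal peaks. The stem and progenitor cell markers Kit, Cd34, Flt3, Meis1, Mecom, Gata2 and Lmo2 had regions in both lists at 7 of 7 genes. Of the defining markers of other cells, Cd3e, Ncr1, Cd79a, Pax5, Ngp, Camp, Hba-a1 and Slc4a1 had no region in either list. Regions stood in Runx1-het and in wild type at 1 and 2 of 4 T and NK cell markers, at 1 and 2 of 4 B cell markers, at 3 and 4 of 4 platelet markers, and in both at 2 of 4 granulocyte, 2 of 4 red cell and 4 of 4 monocyte and macrophage markers.

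The sequences of 4 promoters are printed as examples. They are RefSeq windows (build GRCm38.p6) from 250 bases before to 50 bases after the start site, written 5′ to 3′ on the gene's strand, and capitals mark each match to the RUNX motif TGTGGT or its reverse complement ACCACA. The first overlaps only the end of the strongest region listed in Runx1-het and not in wild type. The second and the third are promoters held by 1 list only. The fourth is the distal promoter of Runx1 itself, where neither list had a region.
Vav1 (chr17:57278850-57279149, plus strand, no RUNX motif): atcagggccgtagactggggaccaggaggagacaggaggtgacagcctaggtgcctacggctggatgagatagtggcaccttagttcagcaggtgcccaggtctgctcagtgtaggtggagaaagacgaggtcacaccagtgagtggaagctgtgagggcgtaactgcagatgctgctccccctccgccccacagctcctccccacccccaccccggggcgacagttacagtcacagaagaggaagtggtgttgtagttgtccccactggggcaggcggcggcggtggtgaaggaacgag
Ms4a4c (chr19:11407411-11407710, plus strand, 1 RUNX motif): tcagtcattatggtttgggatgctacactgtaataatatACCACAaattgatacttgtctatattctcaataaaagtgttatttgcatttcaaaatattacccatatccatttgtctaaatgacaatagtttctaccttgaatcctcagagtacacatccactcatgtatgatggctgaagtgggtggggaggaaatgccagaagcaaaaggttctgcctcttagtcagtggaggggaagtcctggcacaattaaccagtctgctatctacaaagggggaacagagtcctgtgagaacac
S100a6 (chr3:90612644-90612943, plus strand, 3 RUNX motifs): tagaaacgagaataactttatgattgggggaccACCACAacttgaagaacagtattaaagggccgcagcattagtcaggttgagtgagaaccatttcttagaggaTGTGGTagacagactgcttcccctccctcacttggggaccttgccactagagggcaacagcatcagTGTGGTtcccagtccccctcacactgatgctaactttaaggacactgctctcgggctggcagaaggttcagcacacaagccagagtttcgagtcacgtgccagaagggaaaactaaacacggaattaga
Runx1, distal (chr16:92826025-92826324, minus strand, 2 RUNX motifs): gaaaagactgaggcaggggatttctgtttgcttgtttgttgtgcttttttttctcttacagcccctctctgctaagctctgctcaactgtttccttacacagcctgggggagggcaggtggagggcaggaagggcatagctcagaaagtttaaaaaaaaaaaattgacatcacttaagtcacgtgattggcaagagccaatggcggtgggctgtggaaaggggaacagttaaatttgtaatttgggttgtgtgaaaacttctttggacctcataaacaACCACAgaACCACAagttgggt

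Of the 103024 regions, 33242 (32.3%) were held by both lists, 35079 by Runx1-het only and 34703 by wild type only, which is 34% and 33.7% of all regions. The regions of 1 list only were split almost evenly, with 50.3% of them (interval 49.9 to 50.6) in Runx1-het, and the side of this small lean changed with the setting, to 47.0% with peaks within 1000 bp merged and 49.0% with −log10 q of at least 5. Of the Runx1-het regions 48.7% were also in the wild-type list, and of the wild-type regions 48.9% were also in the Runx1-het list. By chromosome the split stayed near even, with a Runx1-het share of the regions in 1 list only of 48.2% on chromosome 8 to 52.9% on chromosome 13. What follows concerns where the regions stood.

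Shared regions differed from those of 1 list first in strength. Strength was read from the same peaks that set the classes, as the highest value in a region, so it is no independent readout. The authors' fold enrichment over control, the peak caller's own value at a summit, had a median of 4.96 in Runx1-het and 4.76 in wild type at regions of both lists, against 4.06 and 3.99 at regions held by that list only. With the Runx1-het list cut into 10 parts by the percentile of fold enrichment among its peaks, 26.9% of regions in the weakest part were also in wild type, and 87.7% in the strongest. For the wild-type list the shares were 30.9% and 87.0%. Regions of both lists were also wider, with a median of 772.5 bp, against 346 bp for Runx1-het only and 316 bp for wild type only, and merging peaks of both lists widens a region by construction. A peak with −log10 q of at least 5 stood in 6260 of the Runx1-het-only regions (17.8%) and in 6380 of the wild-type-only regions (18.4%).

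**Figure D1:**
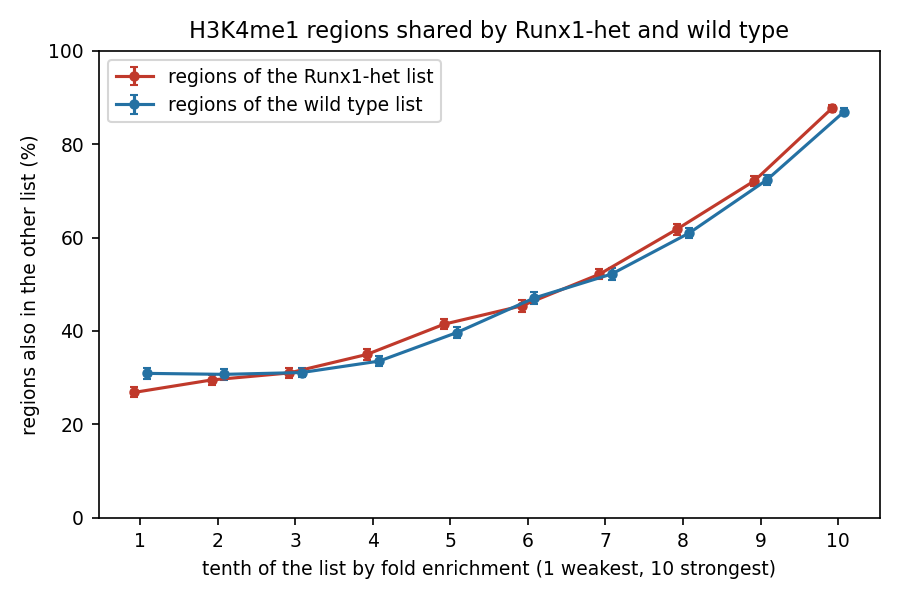
Share of the regions of each H3K4me1 list that were also in the other list (vertical axis, %), by part of the list when cut into 10 by the percentile of fold enrichment among its peaks (horizontal axis, 1 weakest, 10 strongest), with 95% Wilson intervals that cover counting error only. Both curves run from about the same level in the weakest part (26.9% and 30.9%) to 87.7% for Runx1-het and 87.0% for wild type in the strongest.

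Both sets of regions in 1 list only stood at the same kinds of place. A promoter, the range within 1 kb of a protein-coding start site, held 8.24% of the Runx1-het-only and 8.21% of the wild-type-only regions, against 10.9% of the shared ones. Introns held 54.2%, 52.8% and 54.7%, and sequence between genes 33.7%, 35.2% and 30.7%, in the same order. The Runx1-het-only regions were thus slightly more often in introns than the wild-type-only ones, by 1.4 percentage points.

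The strongest region of Runx1-het only lay at the promoter of Vav1, the gene of a guanine nucleotide exchange factor of blood cells. It spanned chr17:57277081-57278994, 1914 bp, and reached a fold enrichment of 16.7 in the Runx1-het list, while no peak of the wild-type list touched it. Each further list gave its own value there, 16.3 in NUP98-HOXD13, 7.19 in Flt3-ITD, and among the double mutants 13.2 with NUP98-HOXD13 and 12.8 with Runx1-het. H3K27ac, the acetylation mark of active enhancers and promoters, followed the same division, with 8.37 in Runx1-het, 8.55 in NUP98-HOXD13, and 11.6 and 9.40 in those double mutants, but 3.68 in wild type and 3.70 in Flt3-ITD. The genotypes with high values are those whose names carry Vav or NUP98-HOXD13, and Vav1 regulatory sequence is used in transgenes of both kinds of mouse. Reads from transgene copies of this sequence and from the endogenous locus cannot be told apart in these lists.

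The other 7 of the 8 strongest Runx1-het-only regions had fold enrichments of 9.97 to 12.3. They lay in introns of Hlcs (biotin attachment to carboxylases), Nxpe3 and Lrrc15, in an intron of Ldlrad4 with Fam210a as the nearest start site, and between genes near Il12a (a subunit of interleukin 12), Idh2 (mitochondrial isocitrate dehydrogenase, mutated in human myeloid leukaemia) and Nemf. At all 7 the Flt3-ITD list also had a peak, with fold enrichments of 3.53 to 7.83, so none of them was held by Runx1-het alone among the 6 genotypes. Of all Runx1-het-only regions in the strongest of the 10 parts of the Runx1-het list, Flt3-ITD held 78.9%. The region near Nemf carried H3K27ac in all 6 lists, with 6.995 in wild type and 9.94 in Runx1-het.

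The 8 strongest wild-type-only regions had fold enrichments of 8.82 to 9.74. They lay in introns of Dst (a cytoskeletal linker), Bcl2 (the anti-apoptotic regulator), Etv6 (a transcriptional repressor that stem cells need), Map3k5 with Map7 as the nearest start site, Nedd1 and Csf1r (the receptor of the macrophage growth factor), and between genes near Sf3b5 and Itm2b. The Csf1r region lay 16149 bp from the nearest start site and had a fold enrichment of 8.82 in wild type. The Flt3-ITD list held all 8 of these too, with 4.17 to 7.44. The Flt3-ITD/Runx1-het list held the regions of Dst, Etv6, Itm2b and Csf1r and not the other 4. Of all wild-type-only regions in the strongest of the 10 parts of the wild-type list, Flt3-ITD held 71.7% and Flt3-ITD/Runx1-het 59.3%.

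Runx1 shared with Rere the largest difference of any gene between Runx1-het-only and wild-type-only regions, 22. Of the 74 regions whose nearest start site within 50 kb was that of Runx1, 34 were in both lists, 31 in Runx1-het only and 9 in wild type only. Over all genes 34.2% of regions within 50 kb of a start site were Runx1-het only and 33.1% wild type only. Peaks assigned to Runx1 covered 43487 bp in the Runx1-het list and 28657 bp in the wild-type list. The other 4 lists had 37659 to 49288 bp there, so the wild-type value was the lowest of the 6. The wild-type list was also the lowest over all autosomes, with 35.0 Mb against 38.5 Mb in Runx1-het and 43.5 to 55.5 Mb in the other 4.

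The gene lies on the minus strand of chr16:92601466-92826149 and has start sites up to 130.654 kb apart, a distal one known for use in definitive blood cells and a proximal one. Between these outermost start sites stood 20 of the Runx1-het-only regions and all 9 of the wild-type-only ones. Another 6 Runx1-het-only regions lay upstream of the distal start site and 5 downstream of the proximal-most one, and no wild-type-only region lay in either stretch. Of all 74 regions, 60 were in introns, 10 between genes, 3 in exons and 1 at a promoter.

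The strongest Runx1-het-only region there, chr16:92784394-92784832, was 41.5 kb downstream of the distal start site with a fold enrichment of 8.89. It ranked at percentile 98.96 of the Runx1-het list and carried H3K27ac in both genotypes, 3.61 in wild type and 4.16 in Runx1-het. The fold enrichments of the 31 Runx1-het-only regions ran from 2.21 to 8.89 with a median of 4.32, and those of the 9 wild-type-only regions from 2.55 to 4.68. The 2 lists thus differed there mostly at regions of middling strength in their own list, with a median percentile of 46.7 for Runx1-het only and 50.5 for wild type only.

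The other lists, which played no part in the choice of regions, held most of the Runx1-het-only regions of Runx1. Of the 31, Flt3-ITD held 19, NUP98-HOXD13 18, and both double mutants 24 each, and 2 were in none of these 4. Among all Runx1-het-only regions, Flt3-ITD held 46.1% and NUP98-HOXD13 39.5%. The double mutant with NUP98-HOXD13 held 48.4% of them, the one with Runx1-het 40.5%, and 27.3% were in none. The wild-type H3K27ac list had a peak at 12 of the 31 and the Runx1-het H3K27ac list at 10, beside 16.3% and 18.3% of all Runx1-het-only regions. Of the 9 wild-type-only regions, the same 4 H3K4me1 lists held 5, 4, 6 and 4, and H3K27ac stood at 0 of 9 in wild type and 3 of 9 in Runx1-het. Over all wild-type-only regions the shares were 39.9%, 34.0%, 40.1% and 36.2%, and for H3K27ac 14.3% and 14.8%. These regions were therefore listed in genotypes with and without the Runx1-het label, and the acetylation of the wild-type cells already marked 12 of those that the wild-type H3K4me1 list lacked.

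**Figure D2:**
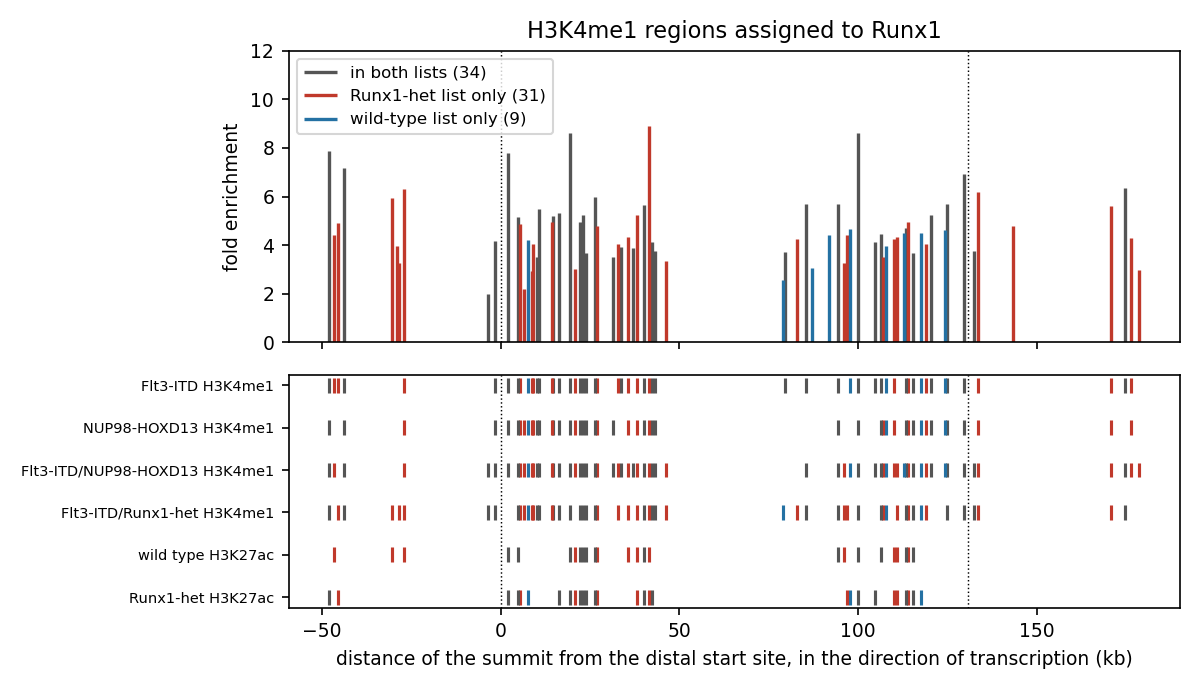
H3K4me1 regions assigned to Runx1, by distance of the summit from the distal start site in kb (horizontal axis, in the direction of transcription, with dotted lines at the distal and the proximal-most start site). Bars in the upper panel give the authors' fold enrichment, in wild type for wild-type-only regions (blue, 9) and in Runx1-het for the others (red, Runx1-het only, 31, and grey, both, 34), and ticks in the lower panel show which regions held a peak in 6 other lists. Only regions within 50 kb of a start site are shown. The red bars stand between the dotted lines and on both sides of them, and the blue ones only between them.

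Erg, an ETS factor of the heptad, had the same lean, with 15 regions in Runx1-het only, 2 in wild type only and 23 in both. One of the 15, chr16:95454014-95454378, had a fold enrichment of 2.67 and lay under the H3K27ac peak with the highest fold enrichment of the wild-type H3K27ac list, 59.3, where the Runx1-het list had 68.6. Of the 15, 10 were in the Flt3-ITD, 10 in the NUP98-HOXD13, 10 in the Flt3-ITD/Runx1-het and 11 in the Flt3-ITD/NUP98-HOXD13 list, and 2 in none of them. Over all Runx1-het-only regions these shares were 46.1%, 39.5%, 40.5% and 48.4%, and 27.3% in none. Fli1, another ETS factor, had 14 against 8 with 30 in both, and Lmo2, a LIM-domain bridging protein, 12 against 8 with 19. At Tal1 (3 against 4), Lyl1 (1 against 1) and Gata2 (1 against 3) there were few regions and no lean to Runx1-het.

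For the 7 heptad genes together, 77 regions were in Runx1-het only and 35 in wild type only, so that 68.8% of the regions in 1 list only were in Runx1-het (59.7 to 76.6), beside 50.8% over all genes. The lean came from 4 genes, Runx1, Erg, Fli1 and Lmo2, while 2 had more wild-type-only regions. Without Runx1 the counts were 46 against 26, or 63.9% (52.4 to 74.0). With both lists cut to peaks with −log10 q of at least 5 before merging, the counts were 46 against 21, or 68.7%. After that cut a region also counts as held by 1 list only where the other list has just a weaker peak.

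The wider list of 28 genes of stem cells and multipotent progenitors, which shares Erg, Gata2, Lmo2, Tal1 and Lyl1 with the heptad, had 168 Runx1-het-only and 123 wild-type-only regions (57.7%, 52.0 to 63.3). Of its members 16 had more Runx1-het-only regions, 10 more wild-type-only regions and 2 equal numbers, and the median difference per gene was 1, against 4 for the heptad and 0 over all genes. Hlf, a leucine zipper factor of long-term stem cells, had 17 against 4, Meis1, a HOX cofactor, 11 against 5, and Kit, the receptor of stem cell factor, 9 against 4. Mecom, which encodes the stem cell factor EVI1, went the other way with 21 against 24. Without the heptad members the share was 56.4%, and among peaks with −log10 q of at least 5 it was 48.6%, with 70 against 74, so the lean of this list was not seen among the stronger peaks.

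At Hlf the Runx1-het-only regions were weak peaks, with fold enrichments of 3.15 to 5.51. Of the 17, 7 were in the Flt3-ITD list, 1 in that of NUP98-HOXD13, 4 in that of Flt3-ITD/Runx1-het, 5 in that of Flt3-ITD/NUP98-HOXD13 and 8 in none of them, where 27.3% of all Runx1-het-only regions were in none. With both lists cut to peaks with −log10 q of at least 5 before merging, the counts at Hlf were 5 and 4.

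The genes of known RUNX1 targets leaned less. Over the 26 genes of that list, 24 of which had a region, 82 regions were in Runx1-het only and 66 in wild type only (55.4%, 47.4 to 63.2, an interval that spans the 50.8% of all genes). Ccnd3, a D-type cyclin gene, had 14 against 10, Gfi1, a transcriptional repressor that acts in granulocyte development, 10 against 10, and Cebpa, the granulocyte master factor, 7 against 6. Mpo, the granule peroxidase whose promoter RUNX1 binds, had 6 against 1, with fold enrichments of 4.69 to 5.63 in Runx1-het. Spi1, which encodes PU.1, had 4 against 4. The RUNX family and its cofactors had 104 against 82 (55.9%), of which Runx1 gave 31 against 9, while the partner gene Cbfb had 5 against 5, Runx2 13 against 9, Runx3 10 against 11 and the corepressor Cbfa2t3 16 against 14.

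Lineage lists spread to both sides of the all-gene share. Above it stood the list of mast cells, basophils and eosinophils with 45 against 28 (61.6%, 50.2 to 71.9), megakaryocytes with 65 against 42 (60.7%, 51.3 to 69.5), B lymphoid genes with 31 against 21 (59.6%, 46.1 to 71.8), dendritic cells with 51 against 41 (55.4%, 45.3 to 65.2), and monocytes and macrophages with 68 against 55 (55.3%, 46.5 to 63.8). Of these 5 intervals only that of the megakaryocyte list did not span the all-gene share of 50.8%. The megakaryocyte list holds Fli1, and its member with the most regions of 1 list only was Mef2c (21 against 12), a factor of megakaryocyte and lymphoid development. For monocytes Zeb2, a repressor needed for myeloid fate, had 29 against 15 and Irf8, the determinant of monocyte and dendritic cells, 7 against 6. In the dendritic list Tcf4, the plasmacytoid determinant, had 23 against 14.

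At the B lymphoid end the lean to Runx1-het, though not most of the counts, came from Dntt, the terminal transferase gene that marks the first lymphoid progenitors. It had 11 regions in Runx1-het only, none in wild type only and 11 in both. Of the 11 in Runx1-het only, Flt3-ITD held 9 and Flt3-ITD/Runx1-het 7, beside 46.1% and 40.5% of all Runx1-het-only regions. Foxo1 had 4 against 7 and Il7r, the interleukin 7 receptor gene, 5 against 3. With both lists cut to peaks with −log10 q of at least 5 before merging, Dntt had 3 against 2. That cut also counts a region as wild type only where the Runx1-het list has just a weaker peak.

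Below the all-gene share stood erythroid genes with 21 against 28 (42.9%, 30.02 to 56.7), interferon response genes with 23 against 28 (45.1%) and T and NK cell genes with 33 against 38 (46.5%), each with an interval that spans the all-gene value. Among peaks with −log10 q of at least 5 the erythroid list stood at 52.9% (9 against 8) and the interferon list at 50% (9 against 9), both above the all-gene share at that setting, 49.6%. Car2, the carbonic anhydrase of red cells, had 1 against 7 with 13 in both. Zfpm1, which encodes the GATA1 partner FOG1, had 3 against 7, and Usp18, an interferon-induced protease, 2 against 6. Granulocyte genes (32 against 30, 51.6%), STAT5 targets (72 against 63, 53.3%), genes not expressed in blood (7 against 7) and ubiquitous promoters (24 against 24) stood close to the all-gene share. In all, 11 of the 16 lists were above the share of all genes.

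**Figure D3:**
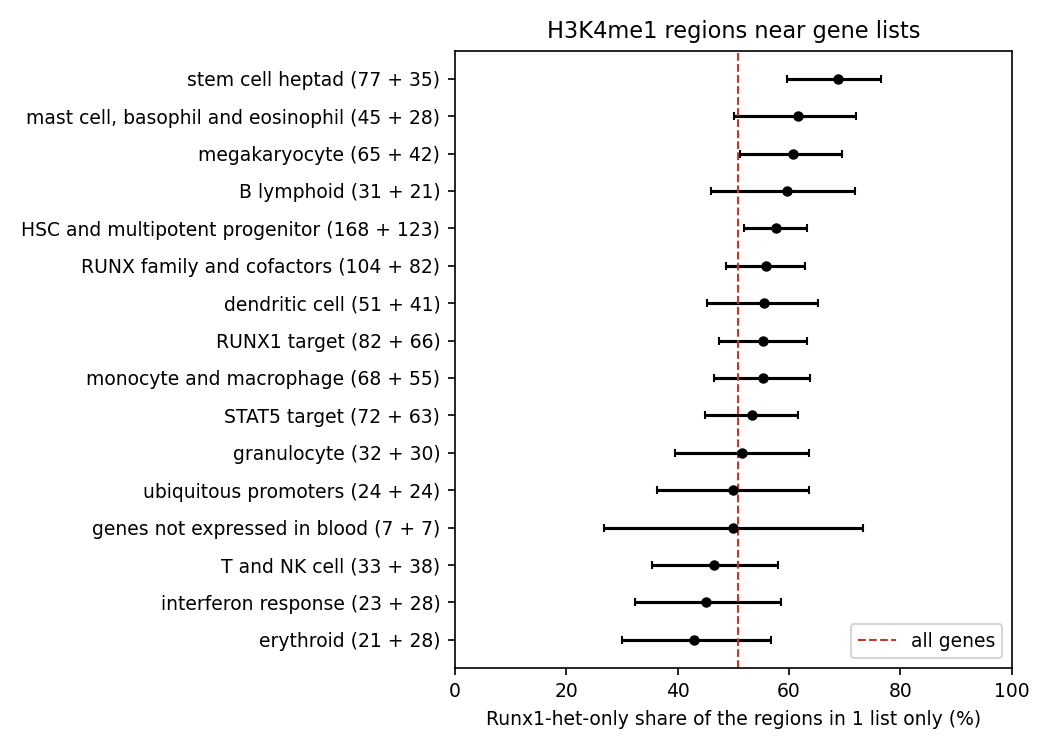
Share of Runx1-het-only regions among the regions of 1 list only (horizontal axis, %) for 16 gene lists, with Runx1-het-only and wild-type-only counts after each name, 95% Wilson intervals that cover counting error only, and a dashed line at the share of all genes, 50.8%. The heptad stands at 68.8% and erythroid genes at 42.9%, and most intervals cross the line.

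Gene by gene, the difference between Runx1-het-only and wild-type-only regions had a median of 0 over the 12316 genes with a region, with a 1st percentile of −5 and a 99th of 7. More Runx1-het-only regions were found at 38.5% of genes and more wild-type-only regions at 40.7%. The 8 genes with the largest difference towards Runx1-het were Rere (42 against 20), Runx1, Tnfaip8 (25 against 5), Pcdh7 (19 against 0), Cd47 (28 against 11), Foxp1 (62 against 46), Maml3 (24 against 8) and Ninj2 (24 against 8), and the next gene, outside this group, was Ptpre (25 against 10). Rere encodes a nuclear receptor coregulator, Tnfaip8 a regulator of apoptosis, Cd47 the surface signal that restrains phagocytosis, Foxp1 a forkhead factor and Maml3 a Notch coactivator. Foxp1 had 53 and Cd47 41 regions in both lists besides.

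Pcdh7, a protocadherin gene, stood out for having no wild-type-only region. Of its 19 Runx1-het-only regions, with fold enrichments of 2.97 to 6.67, 15 were in the Flt3-ITD/NUP98-HOXD13 list, 10 in NUP98-HOXD13, 7 in Flt3-ITD and 6 in Flt3-ITD/Runx1-het, and 3 in none. Over all Runx1-het-only regions these shares were 48.4%, 39.5%, 46.1% and 40.5%, and 27.3% in none. Peaks assigned to Pcdh7 covered 13719 bp in Runx1-het, 13752 bp in Flt3-ITD/NUP98-HOXD13, 5051 bp in wild type and 3584 bp in Flt3-ITD/Runx1-het. The wide coverage in Runx1-het was thus not met in the double mutant that carries the same Runx1 label.

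Towards wild type the 8 genes were Ssbp3 (6 against 20), Mprip (8 against 20), Lpp (5 against 16), Adora2a (5 against 15), Mpzl1 (4 against 14), Cpt1a (3 against 13), Kcnk5 (3 against 13) and Frmd4a (4 against 13). The eighth place was a tie of 7 genes with a difference of −9, in which Frmd4a came first by its 29 regions in all, and the others were Nfia, Smad7, Rfx7, Prune2, Atf3 and Anxa3. Ssbp3 encodes a partner of the LDB1 complex, which loops enhancers to promoters with GATA, TAL1 and LMO2 proteins, Adora2a an adenosine receptor and Cpt1a the enzyme of fatty acid entry into mitochondria. Of the 20 wild-type-only regions of Ssbp3, NUP98-HOXD13 held 15, Flt3-ITD/NUP98-HOXD13 11, and Flt3-ITD and its double mutant with Runx1-het 9 each. Over all wild-type-only regions the shares were 34.0%, 40.1%, 39.9% and 36.2%. Peaks at Ssbp3 covered 5426 bp in Runx1-het, the lowest of the 6 lists, which otherwise ran from 8404 to 14755 bp.

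**Figure D4:**
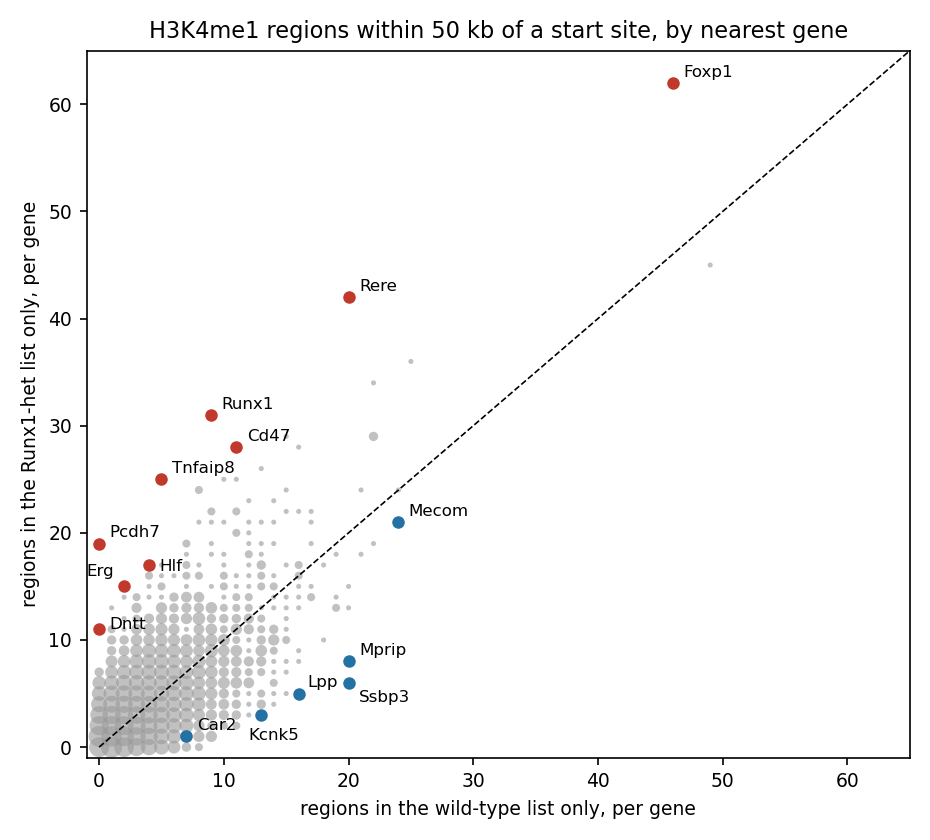
Number of H3K4me1 regions within 50 kb of a gene's start sites that were in the Runx1-het list only (vertical axis) against the wild-type list only (horizontal axis); each grey point is 1 or more genes, larger for more genes, named genes are red where Runx1-het had more and blue where wild type had more, and the dashed line marks equal numbers. Runx1 (31 against 9), Pcdh7 (19 against 0), Erg (15 against 2) and Ssbp3 (6 against 20) lie far from the line.

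Limiting both lists to peaks with −log10 q of at least 5 before merging gave 12468 Runx1-het-only and 12980 wild-type-only regions. Without that limit the numbers were 35079 and 34703. The smaller sets are not parts of the larger ones, because they also hold regions where the other list has just a weaker peak. Counts per gene fall with this limit, so a smaller difference does not by itself show a weaker lean. The difference shrank by more than 1.5 times at 9 of 10 genes recomputed, Car2 excepted, and no direction changed. Runx1 then had 17 against 7, Erg 11 against 4, Pcdh7 6 against 0, Tnfaip8 6 against 4 and Ssbp3 2 against 7.

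The study holds a further pair of lists that differ by the Runx1-het label, Flt3-ITD/Runx1-het against Flt3-ITD, which shares no list with the comparison above. Its lists differ in length, so counts are also given for the same number of strongest peaks in each. Over the 12316 genes that pair had 39796 regions in Flt3-ITD/Runx1-het only and 29880 in Flt3-ITD only, or 28902 and 33390 at equal length. The counts below are to be read beside these uneven totals. At Runx1 the pair had 32 regions in Flt3-ITD/Runx1-het only and 21 in Flt3-ITD only, or 29 and 26 at equal length. At Erg it had 6 and 9, at Hlf 9 and 9, at Pcdh7 8 and 9, at Tnfaip8 14 and 14, and at Cd47 8 and 24, so at these genes Flt3-ITD/Runx1-het had no more regions of its own than Flt3-ITD. At Ssbp3 it had 29 and 11, the opposite direction, and at Rere 39 and 27, which became 28 and 35 at equal length. For the heptad genes the counts were 86 and 60, or 70 and 72 at equal length. Across the 12316 genes the differences of both pairs had a Pearson r of −0.047, and −0.105 at equal length, as a description over genes that are not independent and share their number of regions.

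Known enhancers of the stem cell factor genes were looked up within 2 kb of their known distance from the gene's 5′-most start site. Of 10 elements, 7 had an H3K4me1 peak in Runx1-het and 5 in wild type. Within 1 kb the counts were 5 and 4, and the Gata2 +9.5 kb and Lmo2 −75 kb elements were then listed in neither genotype. The Runx1 +23 kb enhancer, the element active in emerging stem cells, had a peak in both, with fold enrichments of 5.24 in Runx1-het and 6.75 in wild type, and H3K27ac of 13.4 and 7.02. The Fli1 +12 kb (10.3 and 7.80), Gata2 +9.5 kb (4.96 and 4.76), Tal1 +40 kb (2.61 and 5.27) and Cebpa +37 kb (3.70 and 4.69) elements were also listed in both genotypes.

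The Tal1 +19 kb stem cell enhancer was listed in Runx1-het, with a fold enrichment of 5.70, and in the other 4 genotypes, with 4.27 to 6.33, but not in wild type. H3K27ac stood at this element in both genotypes, 5.55 in wild type and 5.64 in Runx1-het. The Lmo2 −75 kb element was listed in Runx1-het (4.13) and not in wild type within 2 kb, and in neither within 1 kb. Spi1, Erg, Lmo2 and Runx1 have widely spaced start sites, so positions are approximate. When the distances were measured from every annotated start site, an alternative added after the data were seen, 10 elements had a peak in Runx1-het and 9 in wild type, and Tal1 +19 kb was the one missing.

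H3K27ac came from other samples and was not used to class the regions. Shared H3K4me1 regions had a peak of the wild-type H3K27ac list at 39.7% and of the Runx1-het H3K27ac list at 42.4%. For Runx1-het-only regions these shares were 16.3% (15.9 to 16.7) and 18.3% (17.9 to 18.7), and for wild-type-only regions 14.3% (13.9 to 14.6) and 14.8% (14.4 to 15.2). The Runx1-het-only regions overlapped an acetylation peak more often than the wild-type-only ones in the lists of both genotypes. The excess was 2.0 percentage points in the wild-type list and 3.5 in the Runx1-het list. The Runx1-het-only regions were also wider, with a median of 346 bp against 316 bp, and a wider region can overlap more peaks of any list. How far width enters these shares was not tested.

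Acetylation listed in Runx1-het and not in wild type stood at 7.54% of the Runx1-het-only regions, at 6.06% of the wild-type-only regions and at 12.2% of the shared ones. Acetylation in wild type and not in Runx1-het stood at 5.52% of both sets held by 1 list only. The Runx1-het H3K27ac list had fewer but wider peaks, 31518 with a median of 765 bp against 42796 with 388 bp, and covered 35.4 Mb against 27.6 Mb, and the part of this in the shares was not tested. At promoters 45.0% of Runx1-het-only and 40.4% of wild-type-only regions had a Runx1-het H3K27ac peak, and beyond 1 kb from a start site 15.9% and 12.5%.

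The H3K4me1 lists of the other 4 genotypes gave the same order. Flt3-ITD held 84.1% of the shared regions, 46.1% of the Runx1-het-only and 39.9% of the wild-type-only ones. NUP98-HOXD13 held 74.5%, 39.5% and 34.0%, Flt3-ITD/Runx1-het 74.6%, 40.5% and 36.2%, and Flt3-ITD/NUP98-HOXD13 83.7%, 48.4% and 40.1%. In each of the 4 the Runx1-het-only share was higher than the wild-type-only share, by 4.3 percentage points in Flt3-ITD/Runx1-het, the smallest difference, and by 8.3 in Flt3-ITD/NUP98-HOXD13. Here too the part of region width was not tested.

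Regions in none of the 4 other lists made up 34.1% of the wild-type-only set, 27.3% of the Runx1-het-only set and 4.05% of the shared set. Regions that were in Flt3-ITD/Runx1-het and in no other of the 4, the pattern that follows the Runx1-het label, made up 4.70% of the Runx1-het-only set (4.49 to 4.93) and 5.30% of the wild-type-only set (5.07 to 5.54). That pattern was therefore not more frequent among the regions listed in Runx1-het than among those listed in wild type.

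**Figure D5:**
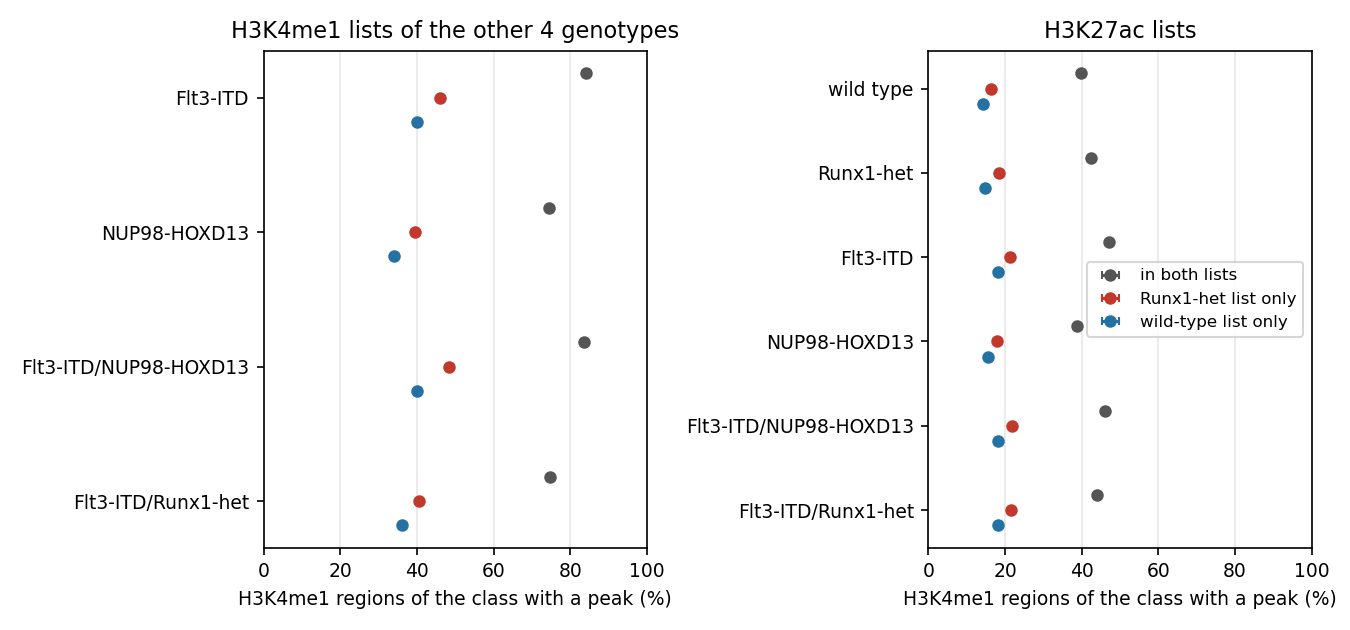
Share of the H3K4me1 regions of each class (horizontal axis, %) at which the H3K4me1 lists of the other 4 genotypes (left) and the 6 H3K27ac lists (right) had a peak, with 95% Wilson intervals that are mostly narrower than the points. Shared regions (grey) lie far to the right, and Runx1-het-only regions (red) lie to the right of wild-type-only regions (blue) in every list shown.

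Motifs were searched on both strands in 31365 RefSeq promoter windows of 300 bases. Of these, 635 overlapped shared regions, 414 Runx1-het-only and 361 wild-type-only regions. The RUNX motif TGTGGT was in 23.4% (19.6 to 27.7) of the Runx1-het-only, 23.5% (19.5 to 28.2) of the wild-type-only, 26.6% of the shared and 16.7% of all windows. With −log10 q of at least 5 it was in 23.7% (17.6 to 31.0) of the Runx1-het-only and 32.5% (25.7 to 40.2) of the wild-type-only windows, and these intervals overlap. The ETS motif GGAAGT was in 29.5%, 30.7%, 31.0% and 23.9%, and the GATA motif AGATAA in 14.5%, 14.7%, 18.7% and 11.2%, in the same order. None of these 3 motifs differed between the 2 sets of 1 list only by more than the counting intervals.

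The AP-1 motif TGANTCA was in 13.04% of the Runx1-het-only, 11.1% of the wild-type-only, 12.4% of the shared and 7.85% of all windows, and the E-box CAGCTG in 14.7%, 17.5%, 18.7% and 16.3%. The MEIS motif TGACAG was in 18.1% of the Runx1-het-only and 26.3% of the wild-type-only windows (19.04% of all), and the shuffled control GTGTTG, which is no known motif here, in 12.3% and 6.65% (11.2% of all). A control of shuffled letters thus differed between the sets by 5.7 percentage points, the scale on which the MEIS difference of 8.2 is to be read. The median GC content was 47.7%, 48.7% and 45.7% in Runx1-het-only, wild-type-only and shared windows, and 53% in all.

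Of the promoters printed above, that of Ms4a4c, a membrane protein of the CD20 family, lay in a Runx1-het-only region (chr19:11407253-11408160, fold enrichment 5.13) with 1 RUNX motif. That of S100a6, a calcium-binding protein, lay in a wild-type-only region (chr3:90612481-90613040, fold enrichment 6.14) with 3 RUNX motifs. Other promoters of these sets held no RUNX motif. Among them were Atp8b4 (fold enrichment 5.70) and Csad (5.21) in Runx1-het-only regions, both stronger than Ms4a4c, and Ptprj (5.85) in a wild-type-only region. The distal Runx1 window held 2 RUNX motifs next to each other near its end, on the strand opposite to transcription, and no H3K4me1 region in either list.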

How the data were processed

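Each of 12 genotype and mark groups has 1 deposited peak list, pooled over its samples, so depth and its precision are unknown. Reads were aligned with BWA to mm10 (GRCm38) and peaks called with MACS2, per the submitters' processing notes; the sources used here give neither versions nor thresholds. Per peak the authors deposited a score of at most 1000, a fold enrichment over control (a ratio), the −log10 p and −log10 q of the caller, and the summit position. Fold enrichment described and ranked peaks within a list.

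Autosomal peaks of both lists were merged (1 bp) and went to the nearest protein-coding start site (GENCODE mouse release 21, build GRCm38) within 50 kb. Shares have 95% Wilson intervals, with no test (pandas 2.3.3, statsmodels 0.14.6). The procedure was tested on simulated data. The planned motif search at summits needs a genome, so RefSeq promoter windows were used. Named genes were those of the 8 strongest regions per side, the 8 genes with the largest difference per side (ties by more regions in all, then by name), in each gene list up to 3 genes with the most regions of 1 list only, and Runx1, Cbfb, Spi1 and the genes of the known enhancers; other heptad, stem cell and target genes (Hlf, Meis1, Mpo, Lyl1) were chosen after their values were seen. Members, gene lists and elements were chosen with earlier results of these data known. The alternatives were equal-length lists, peaks with −log10 q of at least 5, coverage of at least 0.5 of a region, strong peaks set against all peaks of the other list, no merging, merging within 1000 bp, all chromosomes, promoters within 2 kb, start sites within 100 kb and enhancer windows of 1 kb.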

Additional observations from a re-analysis of the deposited data

Results flagged for a closer look

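Signal on the Y chromosome, outside the autosomal comparison, was listed in Runx1-het at 6 H3K4me1 peaks and 5 H3K27ac peaks, against 3 and 0 in wild type. In Flt3-ITD/Runx1-het the Y chromosome had 5 peaks of each mark, and in the other 3 genotypes 0 or 1. The sex of the animals is not given in the labels, and sex and genotype cannot be told apart in the pooled lists.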

How the results depend on the processing

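The files limit what can be said: 1 pooled list per group, no depth, an unstated peak threshold and a wider Runx1-het list. No paired analysis was possible because the pooled lists carry no replicate, and leaving out a replicate was not possible either. The motif search 50 bp around summits and beyond 1 kb of start sites was not run, for want of a genome. None of the 40 recomputed gene differences changed sign, but some shares crossed 50% or the all-gene share, and where a value moved the cause was not tested.

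The Runx1-het share of regions in 1 list only was 50.8% with equal-length lists, 49.0% with −log10 q of at least 5 (12468 against 12980 regions), 49.5% for strong peaks against the full other list (6260 against 6380), 51.5% with coverage of at least 0.5 and 47.0% with peaks within 1000 bp merged (16485 against 18592).

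In the order shared, Runx1-het only, wild type only, promoters within 2 kb held 18.8%, 15.5% and 14.9%. With −log10 q of at least 5 promoters held 9.504% of Runx1-het-only and 9.24% of wild-type-only regions. The Runx1-het H3K27ac list then held 58.9%, 34.1% and 29.0%, the wild-type H3K27ac list 54.0%, 30.9% and 27.3%, the Flt3-ITD H3K4me1 list 95.8%, 75.5% and 70.2% and the Flt3-ITD/Runx1-het list 87.8%, 64.7% and 59.1%. The RUNX motif was in 30.3%, 23.7% and 32.5% of promoters. With coverage of at least 0.5 the same 4 lists held 43.7%, 21.0% and 16.4%, 40.9%, 18.9% and 15.9%, 84.8%, 50.7% and 43.1%, and 75.3%, 44.7% and 38.9%, and promoters held 8.58% of Runx1-het-only regions. From every start site 9 known enhancers had a wild-type peak.

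Of 40 recomputed gene differences 31 stayed within 1.5 times, and the other 9 all moved at −log10 q of at least 5, where fewer regions were left in all. At that setting 6 of the 16 lists crossed the all-gene share (49.6%), the stem cell list to 48.6% and the dendritic list to 48.8% from above, and the erythroid list to 52.9%, the interferon list and ubiquitous promoters to 50% and genes not expressed in blood to 57.1% from below. Of 66 recomputed gene-list shares 64 stayed within their interval.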

Other observations

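Peaks on the X chromosome numbered 441 in the Runx1-het H3K4me1 list and 496 in the wild-type list.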
